A study of Homo sapiens with 21 samples.

Results

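The JMJD6 chromatin immunoprecipitation (ChIP-seq) experiment gave 4 lists of peaks from 786-O, an established cell line that was derived from a human clear cell kidney cancer. They came from the 4 libraries made with an antibody to JMJD6, out of 21 samples in the series. All 4 are labelled as JMJD6 wild type, libraries 1 and 2 belonged to sequencing batch 1, and libraries 3 and 4 to batch 2. The labels do not say whether the libraries came from separate cultures, so the spread between them may be technical, and no ChIP library of JMJD6 knockout cells was analysed here.

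JMJD6 is a nuclear enzyme of the Jumonji C family, which uses iron, oxygen and 2-oxoglutarate. It hydroxylates lysines of proteins that act in splicing, and it has been described on chromatin. It is not known for a DNA-binding domain that reads a sequence, so its ChIP signal is read as the presence of the protein near DNA, held there directly or through other proteins. A peak is a stretch of genome where the immunoprecipitated fragments pile up above the level that the peak caller expects. Its summit is the position of the highest pileup, and its fold enrichment is the ratio of the pileup to the expected level at the summit, as the authors' peak caller gave it. All coordinates are those of the human genome build hg19.

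The lists held 978 and 1344 peaks in batch 1 and 923 and 1139 peaks in batch 2, or 1096 ± 189 per library (SD, n = 4). They covered 334 kb and 501 kb in batch 1 and 282 kb and 381 kb in batch 2. The 2 libraries of a batch differed more in peak number than the batch means did. The mean of batch 2 minus that of batch 1 was −130 peaks (exact 2-sided permutation test, p = 0.667), and without library 2, which had the longest list, batch 2 had 53 more. A comparison of 2 libraries with 2 cannot give a p below 0.333.

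JMJD6 peaks were narrow. The median width was 302 bp and 330 bp in batch 1 and 270 bp and 293 bp in batch 2. Both medians of batch 2 lay below both of batch 1 (difference −34.5 bp, exact 2-sided permutation test, p = 0.333, the smallest that this design allows). The shortest peak was 184 bp and 207 bp wide in batch 1 and 161 bp and 177 bp in batch 2, and from 42 to 82 peaks of a list had exactly that shortest width. Peaks of 1000 bp or more were rare, from 6 in library 3 to 15 in library 2. Wider peaks had higher fold enrichment: within a list the Spearman correlation of width and fold enrichment was 0.737 and 0.787 in batch 1 and 0.721 and 0.720 in batch 2. This is a correlation across peaks, which are not replicates, and width and height come from the same pileup. In library 1 the median width was 231 bp in the lowest quartile of fold enrichment and 435 bp in the highest quartile.

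Summits lay at the middle of the peaks. The median summit was at 49.1% and 49.8% of the peak width in batch 1 and at 49.1% and 49.6% in batch 2, counted from the lower coordinate. The lower and upper quartiles of the summit position were at 42.7% and 55.5% of the width, as means over the 4 lists. The median distance from the centre of a peak to its summit ranged from 17.0 bp in library 3 to 21.5 bp in library 2. The batches did not separate on the median summit position as a percentage of width (difference −0.112 percentage points, exact 2-sided permutation test, p = 0.667). This difference was 0.224 without library 2 and 0.123 without library 3.

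Fold enrichment had the same shape in the 4 lists, with many low peaks and a long upper tail. Its median was 8.71 and 7.51 in batch 1 and 10.0 and 9.15 in batch 2, and its highest value ran from 93.4 in library 1 to 101.1 in library 4. Both medians of batch 2 lay above both of batch 1 (difference 1.48, exact 2-sided permutation test, p = 0.333, the smallest that this design allows). A fold enrichment of 10 or more was reached by 389 and 449 peaks in batch 1 and by 466 and 498 peaks in batch 2. For the count of peaks at 50 or more the order turned, with 33 in each library of batch 1 against 20 and 30 in batch 2. Few peaks had a weak q-value. The lowest −log10 q-value was 1.84 and 1.82 in batch 1 and 1.59 and 1.30 in batch 2, and from 6.03% to 9.22% of a list had a value under 5.

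**Figure D1:**
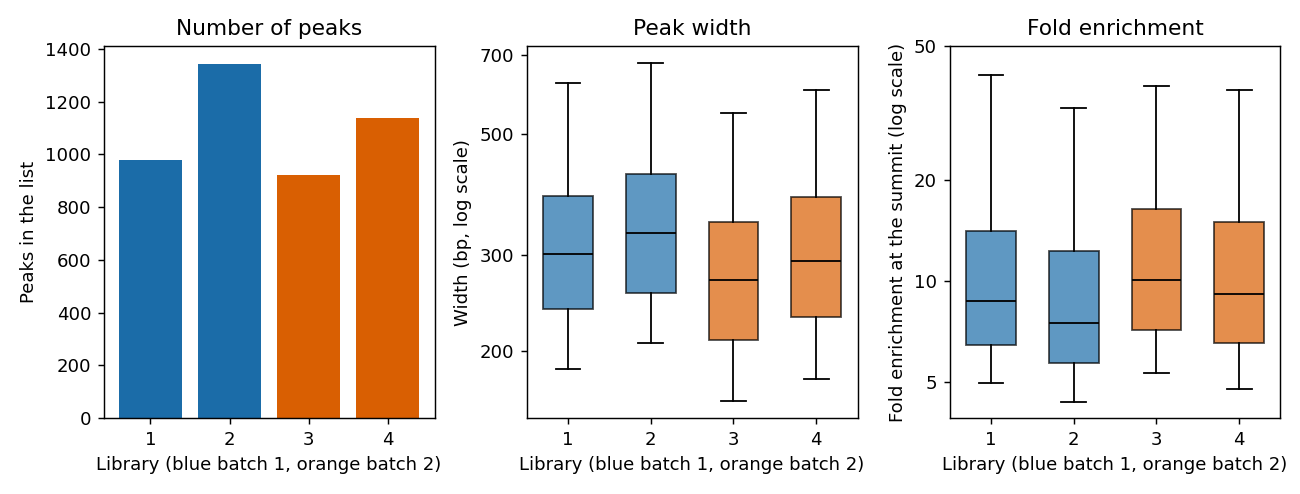
Number of peaks, peak width in bp and fold enrichment at the summit for each JMJD6 library, with batch 1 in blue and batch 2 in orange. Boxes span the quartiles with the median as a line, whiskers run from the 5th to the 95th percentile, width and fold enrichment are on log axes, and the boxes of batch 2 sit lower for width and higher for fold enrichment.

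The deposited values also held the depth behind each peak. The caller MACS2 is known to write fold enrichment as a ratio of pileup to expected level with 1 added to each, and the p-value as a Poisson tail of the same pileup. These 2 relations were solved by trying only whole numbers of fragments at the summit and keeping the best. For 4384 of 4384 peaks the number kept returned the deposited −log10 p-value within 0.001. The median summit held 26 and 28 fragments in batch 1 and 23 and 24 in batch 2. The lowest summit pileup was from 8 to 12 fragments and the highest was 282, 330, 212 and 275 in libraries 1 to 4.

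The expected level was not the same in the batches. Its lowest value in a list, in MACS2 usually the genome-wide level, was 1.71 and 2.16 fragments in batch 1 and 0.881 and 1.08 in batch 2. It was shared by 424, 376, 169 and 220 peaks of libraries 1 to 4. Divided by the shortest peak width, which in MACS2 is by default the fragment length, this floor was 1.70 and 1.91 times as high in libraries 1 and 2 as in library 3, and 1.11 times as high in library 4. This is a relative depth only if the shortest width is the fragment length and the genome size was set alike in all calls. Expected levels above the floor were compared with whole multiples of a step, chosen in each list to fit the most of its peaks. This step was 0.807, 0.954, 0.631 and 0.807 fragments in libraries 1 to 4. Levels within 0.003 of a multiple were found for 25.6% to 42.4% of all peaks of a list, with peaks at the floor counted in the total.

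All 4384 peaks were merged into 1689 regions, in which peaks that overlap by at least 1 bp are joined. The largest class was that of 685 regions with a peak in every library, 40.6% of all regions (exact Clopper-Pearson 95% interval 38.2% to 42.9%, counting error only). A further 184 regions had a peak in 3 libraries, 239 in 2 and 581 in 1. Regions with a peak in at least 1 library of each batch numbered 1025, or 60.7%. Single-library regions were unevenly spread: 296 were found in library 2 alone and 164 in library 4 alone, against 65 in library 1 and 56 in library 3. Libraries 2 and 4 had the longest lists of their batches, and they shared 88 regions that neither of the other libraries had. Libraries 1 and 2, of the same batch, had 59 such regions in common, and libraries 3 and 4 had 24.

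**Figure D2:**
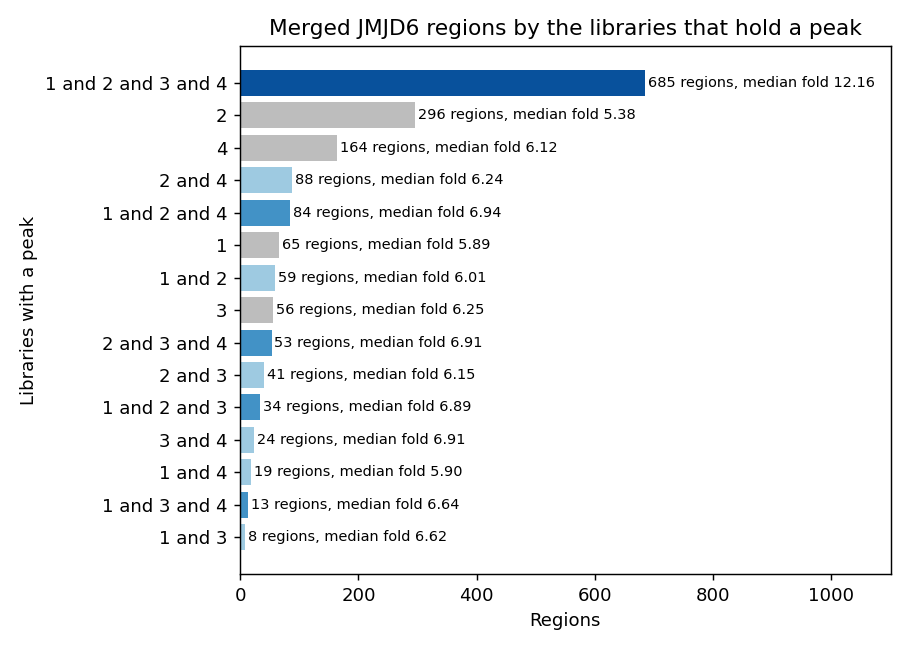
Number of merged JMJD6 regions for each combination of libraries that hold a peak, coloured by how many libraries these are. Each bar also gives the median fold enrichment, with the highest peak of a library standing for a region. The 685 regions found in all 4 libraries form the longest bar and have a median of 12.2, against 5.38 to 6.94 in every other class.

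Height and recurrence went together. Peaks in regions of all 4 libraries had a median fold enrichment of 12.0 and a median summit pileup of 36 fragments. In regions of 3, 2 and 1 libraries the median fold enrichment was 6.91, 6.19 and 5.75, and the median pileup 19, 18 and 17 fragments. Of the highest quartile of each list by fold enrichment, 100% of 245 peaks in library 1, 98.8% of 336 in library 2, 100% of 231 in library 3 and 99.3% of 285 in library 4 lay in regions of all 4 libraries. Of the lowest quartile these shares were 35.5%, 11.6%, 39.4% and 21.1%. In library 2, 51.8% of the peaks of the lowest quartile were found in no other library. Since a list says nothing of positions without a peak, a region missing from a list may still hold fragments there below the threshold.

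Overlap between 2 lists followed their lengths more than their batches. Of the 978 peaks of library 1, 89.3% overlapped a peak of library 2, which is of the same batch, and of the 923 peaks of library 3, 89.1% did so although it is of the other batch. Of the 1344 peaks of library 2, 64.4% overlapped library 1, 60.6% library 3 and 68.0% library 4. Of the 1139 peaks of library 4, 80.7% overlapped library 2, and 68.6% overlapped library 3 of its own batch. The mean share was 76.8% ± 12.2 over the 4 directed pairs within a batch and 76.2% ± 9.16 over the 8 directed pairs between batches (SD over pairs, which share libraries). The difference of 0.613 percentage points was 0.190 when the 923 highest peaks of each list were compared, and it was −0.988 without library 2.

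The summits of common regions nearly coincided. At the 685 regions of all 4 libraries, the median distance between the summits of 2 libraries was from 20 bp to 22 bp over the 6 pairs. From 80.1% to 84.5% of the regions had summits within 50 bp of each other. For 90% of the regions the distance was at most 61.0 bp to 70.6 bp, depending on the pair. Summits of libraries of the same batch, at 22 bp and 20 bp, were as far apart as those of libraries of different batches, at 21 bp to 22 bp.

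Most of the highest JMJD6 regions of a library were also among the highest of the others. Of the 100 highest regions of each list, 65 were among the 100 highest of all 4 lists, and all 143 regions that reached any of these sets had a peak in all 4 libraries. The region with the highest mean, chr15:45003279-45003953, had a fold enrichment of 93.4 and 85.7 in batch 1 and 96.0 and 95.6 in batch 2. Its summit pileup was 270 and 330 fragments in batch 1 and 212 and 249 in batch 2, and its 4 summits lay within 18 bp. The order of the batches thus differed between the pileup and the ratio.

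At chr10:111970703-111971461 the fold enrichment was 82.7, 99.6, 80.9 and 101.1 in libraries 1 to 4, and the summits lay within 16 bp. The batches overlapped here, with libraries 1 and 3 close together and libraries 2 and 4 close together. At chr1:151319432-151320278 the values were 74.1, 86.6, 62.3 and 90.6, and at chr17:38136370-38137180 they were 70.8, 83.6, 70.2 and 86.4. In each of these 3 regions libraries 2 and 4 were above libraries 1 and 3.

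Within the 10 highest regions, chr3:25706208-25706783 had the smallest spread, at 73.2 ± 3.96 (SD, n = 4). The region chr17:76836614-76837297 had the widest, at 70.5 ± 18.9. Its fold enrichment was 44.9 and 67.6 in batch 1 and 85.5 and 84.0 in batch 2, while its summit pileup was 225, 267, 206 and 275 fragments. The expected level there was 4.03 and 2.96 in batch 1 and 1.42 and 2.29 in batch 2, so the ratio separated the batches and the pileup did not. The other regions of the 10 were chr12:50505255-50505953, chr19:56028266-56028801, chr11:72433230-72434031 and chr7:75947090-75947763, with mean fold enrichments from 65.4 to 70.2.

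Fold enrichment at the 685 common regions correlated between any 2 libraries. On the log2 scale Pearson's r was 0.859 for libraries 1 and 2 and 0.806 for libraries 3 and 4, and from 0.808 to 0.834 for the 4 pairs of different batches. Spearman's rho ran from 0.731 to 0.787. These values are across regions, which are not independent replicates, and all regions had passed the threshold in every library. The fold enrichment of 2 libraries was within 2-fold at 92.3% to 94.2% of the regions. The 2 libraries of batch 2 had the lowest r of the 6 pairs and those of batch 1 the highest, so a shared batch did not go with a higher r in both batches.

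**Figure D3:**
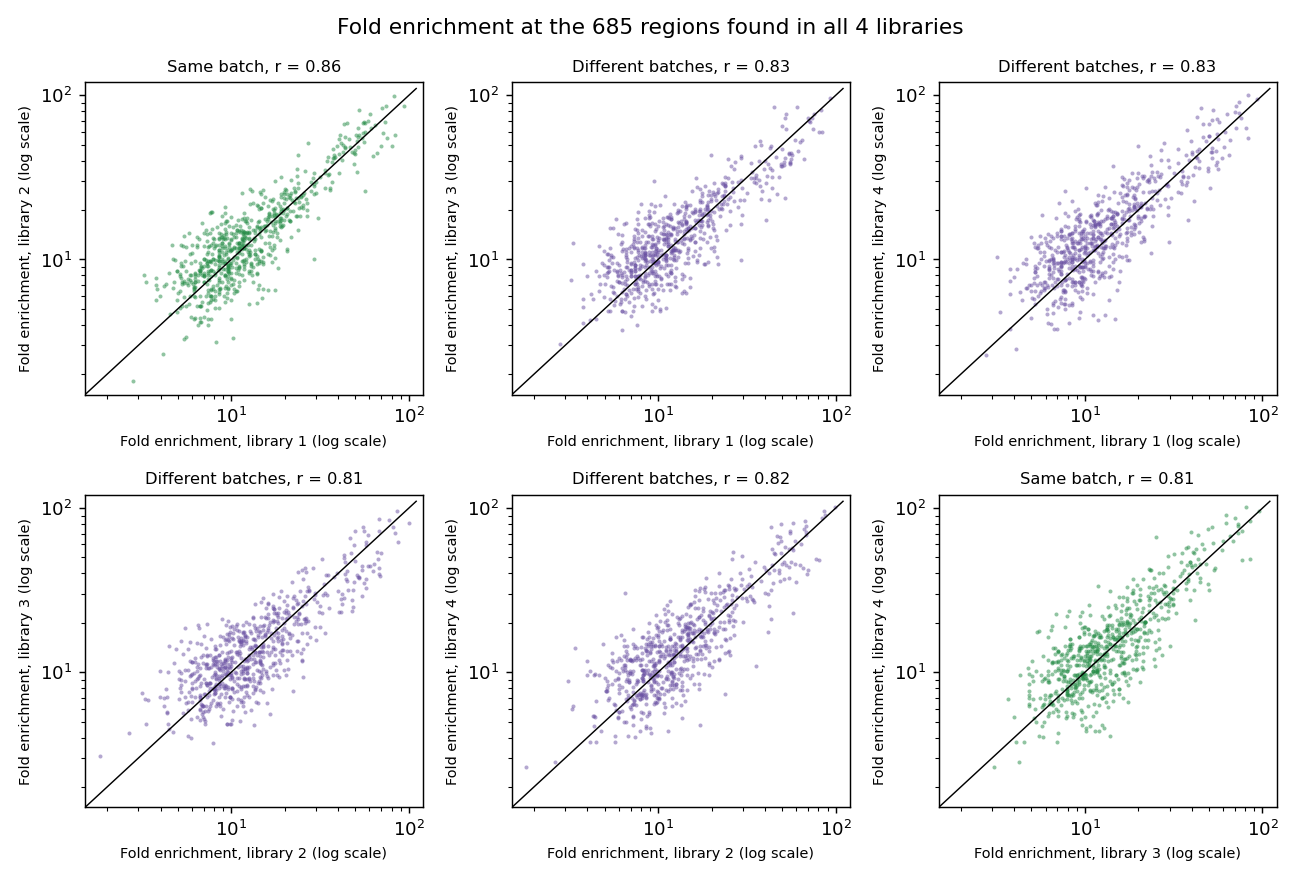
Fold enrichment of each of the 685 common regions in 1 library against another, on log axes, for the 6 pairs of libraries, with the line of equality. Green panels are pairs of the same batch and purple panels pairs of different batches, and the points scatter about the line with r from 0.81 to 0.86 in all of them.

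The recovered pileups agreed more closely than the ratios. The mean of Pearson's r on log2 pileup was 0.927 over the 2 pairs within a batch and 0.899 over the 4 pairs between batches. For libraries of the same batch the SD of the log2 difference in pileup was 0.320 for libraries 1 and 2 and 0.355 for libraries 3 and 4. Counting error alone, taken as Poisson error of the 2 pileups, gives 0.334 and 0.374. Within a batch the spread between libraries was thus 0.960 and 0.948 times the counting error. Between batches this ratio was from 1.04 to 1.22.

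Relative to the counting error, the spread between batches was largest at the tall regions. In the quartile of common regions with the lowest mean pileup, from 14.8 to 26.0 fragments, the spread was from 0.825 to 1.00 times the counting error over all 6 pairs. Only regions above the threshold in every library enter here, which trims low values. In the highest quartile, from 54.8 to 265 fragments, it was 1.04 and 1.07 times the counting error for the pairs within a batch, and 1.56, 1.42, 1.64 and 1.67 times for the pairs of different batches. The SD between batches was itself lower there, at 0.318 to 0.370 against 0.391 to 0.450 in the lowest quartile. For these pairs the counting error fell more, to 0.210 to 0.237 from 0.429 to 0.475.

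**Figure D4:**
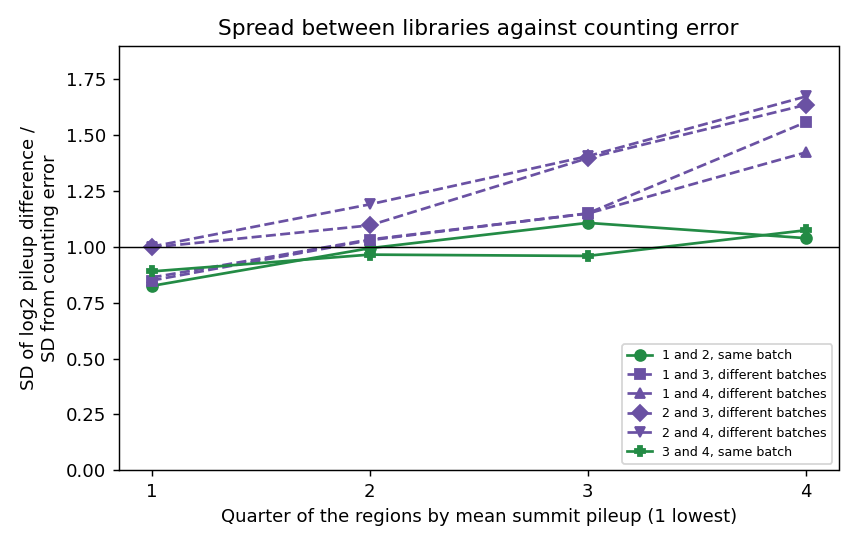
Spread of the log2 pileup difference between 2 libraries divided by the spread that counting error gives, for quartile groups of the 685 common regions by mean summit pileup. Pairs of the same batch (green, solid) stay between 0.83 and 1.11, and pairs of different batches (purple, dashed) reach 1.42 to 1.67 in the highest quartile.

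The batch differences recurred in separate libraries. The log2 pileup difference of library 3 and library 1 correlated with that of library 4 and library 2, which share no library, at r = 0.275 across the 685 regions, and at r = 0.476 in the highest quartile. With the other pairing, library 4 and library 1 against library 3 and library 2, r was 0.308 and 0.631. The differences within batches, library 2 and library 1 against library 4 and library 3, gave r = −0.03 and −0.22. On fold enrichment the first 2 correlations were weaker, at 0.0742 and 0.0541 over all regions and 0.144 and 0.147 in the highest quartile. The differences within batches gave 0.0202 and −0.0040 on that scale. Relative depth and shortest peak width also differed between the batches, and their part in these differences cannot be told apart from that of the batch.

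In fold enrichment the shift between batches was small. The median fold enrichment of the 685 regions was 11.1 and 12.0 in batch 1 and 12.4 and 13.4 in batch 2. The median over regions of batch 2 minus batch 1 was 0.11 on the log2 scale, a 1.08-fold difference (exact 2-sided permutation test of the library medians, p = 0.333, the smallest that this design allows). Leaving out 1 library moved it to between 0.07, without library 1, and 0.18, without library 3. It was 0.35 without the added 1 and 0.66 when pileup was divided by the floor of each library, so its size depends on the denominator. Both libraries of batch 2 were above both of batch 1 at 178 regions, 26% of the 685, and below both at 93 regions, 13.6%. A batch difference of 2-fold or more was seen at 9 regions.

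The largest shift towards batch 2 was at chr2:170430250-170430640, with a fold enrichment of 5.56 and 5.21 in batch 1 and 15.5 and 11.1 in batch 2. Its pileup was 27, 39, 34 and 37 fragments, and its expected level was 4.03 and 6.68 in batch 1 against 1.26 and 2.42 in batch 2. The 4 regions that followed were chr15:75315674-75316017, chr19:893037-893556, chr2:27304073-27304445 and chr1:202317532-202317871, each more than 2-fold higher in batch 2. In all 5 of these regions the expected level in library 2 was between 4.77 and 6.68, above its lowest value of 2.16.

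Towards batch 1 the largest shift was 2.04-fold, at chr20:35724243-35724888, with 13.7 and 10.8 in batch 1 and 6.24 and 5.67 in batch 2. The tallest region of this set was chr19:49077784-49078444. Its fold enrichment was 38.1 and 41.7 in batch 1 and 23.4 and 17.5 in batch 2, and its pileup was 105 and 131 against 52 and 73 fragments, so both measures separated the batches. At chr2:100497015-100497636 the pileup was 50 and 64 fragments in batch 1 and 19 and 26 in batch 2, and the fold enrichment 14.1 and 17.0 against 7.92 and 7.89. The remaining regions of the set were chr17:37774703-37775205 and chr9:33001487-33001906.

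Regions with a peak in both libraries of 1 batch and in neither of the other were low. So were other regions with a peak in exactly 2 libraries. The median fold enrichment was 6.01 for libraries 1 and 2 and 6.91 for libraries 3 and 4. For pairs of different batches it was from 5.90 to 6.62. Among the 59 regions with a peak in both libraries of batch 1 and in neither of batch 2, the highest by mean log2 fold enrichment was chr12:656168-656558, with a fold enrichment of 7.74 and 11.7 and a pileup of 20 and 43 fragments. The next were chr19:16889566-16889923, chr9:120678560-120678881, chr19:10870375-10870774 and chr1:44412225-44412528, with means between 8.48 and 9.77. Among the 24 regions of batch 2 alone the highest was chr16:68482525-68482754, with 6.91 and 10.1 and a pileup of 12 and 20 fragments. It was followed by chr17:7094908-7095151, chr12:121454211-121454464, chr6:17707103-17707377 and chr12:53661922-53662157, with means from 7.67 to 8.40. The mean fold enrichments of these 10 regions lie below 12.0, the median of the peaks in regions of all 4 libraries.

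Library 4 held an exception among regions of 1 library, singled out after its values were seen. Its highest region that no other library had was chr17:74721451-74722073, with a fold enrichment of 18.7, a pileup of 63 fragments and a width of 623 bp. The highest such region had 8.12 in library 1, 10.1 in library 2 and 10.4 in library 3. Along 7.92 kb around it, library 4 had 5 peaks and the other libraries none. The others were chr17:74714727-74715067 at 11.5, chr17:74716304-74716657 at 7.89, chr17:74719726-74720223 at 15.9 and chr17:74722321-74722643 at 10.2. These 5 held ranks 1, 2, 4, 5 and 21 of the 164 regions found in library 4 alone. Which gene lies at this position was not determined, as no hg19 annotation was used. Whether it is the gene of JMJD6 itself, where fragments could have another source than bound protein, was not tested. No other run of 3 or more single-library regions less than 10 kb apart occurred in any of the 4 lists.

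JMJD6 peaks were concentrated on some chromosomes, in the same way in every library. Chromosome 19 held 139 and 171 peaks in batch 1 and 140 and 160 in batch 2, the most of any chromosome in each list. This was 14.0% ± 1.01 of a list (SD, n = 4), while 7.24% of the 20033 protein-coding genes of the GRCh38.p14 gene table are on that chromosome. Per 100 protein-coding genes it had 10.5 ± 1.08 peaks, the highest of all chromosomes. Chromosome 1 held 11.6% ± 0.304 of a list and chromosome 6 held 5.97% ± 0.701.

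**Figure D5:**
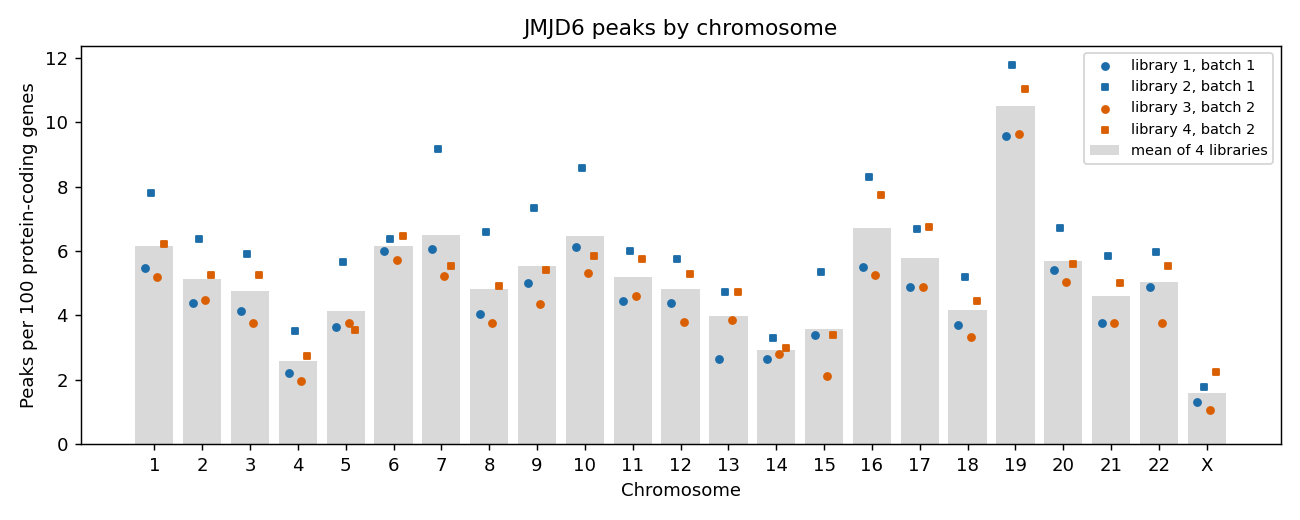
JMJD6 peaks per 100 protein-coding genes on chromosomes 1 to 22 and X, with points for the 4 libraries and bars for their mean. Chromosome 19 stands highest in every library with a mean of 10.5, and chromosome X lowest with a mean of 1.59.

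Counted per 100 protein-coding genes, chromosome 16 followed chromosome 19 with 6.70 ± 1.54 peaks and chromosome 7 with 6.50 ± 1.81. Chromosomes 10, 1 and 6 came next, from 6.15 to 6.47. The spread over libraries includes the length of the lists, which all chromosomes of a library share, so it cannot rank these neighbours. Their order was not tested. Chromosome X had 1.59 ± 0.523, chromosome 4 had 2.60 ± 0.688 and chromosome 14 had 2.93 ± 0.282 (SD, n = 4). The shares of a list on the 24 chromosomes correlated between libraries at r = 0.976 to 0.995, with no p given since chromosomes differ in size in all lists alike. The largest difference between 2 libraries was 2.44 percentage points, on chromosome 19 between libraries 2 and 3. Gene number does not stand for the copy number of a chromosome in these cells, whose part was not tested.

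Peaks on chromosome 19 also had a higher fold enrichment. The median fold enrichment was 10.2, 9.17, 11.3 and 10.5 there in libraries 1 to 4, against 8.48, 7.27, 9.73 and 8.90 on all other sequences. It was higher on chromosome 19 in 4 of 4 libraries. The median summit pileup there was 28, 31, 24.5 and 27.5 fragments in libraries 1 to 4, against 26, 28, 23 and 23 elsewhere. The median expected level was lower on chromosome 19 in libraries 1 to 3, at 1.71, 2.16 and 1.07 against 1.93, 2.77 and 1.26, and it was 1.61 on both sides in library 4. Both parts of the ratio thus moved with it in 3 libraries, and the pileup alone in library 4. Of the 212 regions on chromosome 19, 107 (50.5%) were found in all 4 libraries, and of the 86 on chromosome 6, 53 (61.6%, exact Clopper-Pearson 95% interval 50.5% to 71.9%, counting error only). Over all 1689 regions this share was 40.6%, and chromosome 21, with 16 regions, had 50%. The 53 common regions of chromosome 6 had a median fold enrichment of 18.2, and the 107 of chromosome 19 had 12.7.

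Common regions were unevenly spread along the chromosomes. Their spacing was not compared with that of genes. The 679 common regions that lie on assembled chromosomes occupied 446 windows of 1 Mb, of which 322 held 1 region and 26 held 4 or more. The median distance to the nearest other common region was 464 kb overall and 79.6 kb on chromosome 19. Of these regions, 50 had a neighbour within 10 kb and 167 within 100 kb. The fullest window was on chromosome 19 between 49 and 50 Mb, with 15 common regions. Its tallest by mean was chr19:49163953-49164828, with a fold enrichment of 37.6 and 41.7 in batch 1 and 27.9 and 29.8 in batch 2.

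A second window lay on chromosome 6 between 32 and 33 Mb, with 11 common regions over 533 kb. Its 4 tall regions near the upper end had fold enrichments from 38.8 to 69.6. At chr6:32908543-32909327 the values were 59.0 and 69.6 in batch 1 and 53.2 and 41.8 in batch 2, and at chr6:32821409-32822151 they were 55.7 and 68.6 against 38.8 and 39.4. Both regions had both libraries of batch 1 above both of batch 2, as had 13.6% of the 685 common regions. In this window 8 of 11 regions had a lower mean log2 fold enrichment in batch 2, against 33 of 53 on all of chromosome 6. Over all 685 common regions 61.3% were higher in batch 2.

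The third window, tied with chromosome 19 between 45 and 46 Mb at 7 common regions, lay on chromosome 6 between 26 and 27 Mb. All 7 regions of this window were found in every library, and it held no others. They followed each other at distances from 16.2 kb to 19.2 kb within 110 kb, with fold enrichments from 22.8 to 60.1. The first, chr6:26364966-26365693, had 40.3 and 54.4 in batch 1 and 29.3 and 43.8 in batch 2. At chr6:26402064-26402868 the values were 56.4 and 60.1 in batch 1 and 44.7 and 35.6 in batch 2. In 6 of the 7 regions the batch mean was lower in batch 2, with a median difference of −0.38 on the log2 scale. Over all 53 common regions of chromosome 6 the batch mean was lower in batch 2 at 33, while over all 685 it was higher in batch 2 at 420 (61.3%). The tie on chromosome 19 between 45 and 46 Mb spanned 571 kb, with chr19:45430144-45430895 as its tallest, at 43.1, 66.7, 49.1 and 74.2 in libraries 1 to 4.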

How the data were processed

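Peaks were taken from the 4 deposited JMJD6 lists, 1 per library, in the narrowPeak layout without a header. The submitters' processing notes name MACS2 2.1.2, bedtools 2.26 and the build hg19 without roles. The aligner of the ChIP reads, duplicate removal, the control library and the threshold are not given in the sources used here. The deposited columns used were fold enrichment (a ratio), the −log10 p-value and −log10 q-value, and the summit offset in bp, which the authors' peak caller wrote. The deposited score was 10 times the −log10 q-value cut to a whole number. Fragment pileups and expected levels were solved from fold enrichment and −log10 p-value. On data simulated with the same relations, 100% of 4384 pileups were recovered. This checks the solving step only, and cannot show that the peak caller used these relations.

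Regions join peaks that overlap by at least 1 bp, and the peak of highest fold enrichment stands for a library. Coordinates count from 1. Comparisons of batches used an exact 2-sided permutation test over libraries (Python 3.11.15, scipy 1.17.1). Regions were named by rule: the 10 highest by mean log2 fold enrichment, 5 with the largest batch difference each way, 5 per batch found in that batch alone, and the fullest windows of 1 Mb. Members and rules were chosen with earlier results of these data known. Genes and sequences were not assigned, since the gene tables used here are of GRCh38.p14, which served only to count genes per chromosome. RNA, H3K4me3 and input samples were not used here.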

Additional observations from a re-analysis of the deposited data

Results flagged for a closer look

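The widest peak of library 4 was 2694 bp, while that of libraries 1, 2 and 3 was 3178, 3196 and 3174 bp, so library 4 stood apart from 3 close values. Of 63 sets of 4 library values examined in this way, this was the 1 set with such a library, and chance alone marks about 1 in 20. The widest merged region, of 3206 bp, lay on the contig gl000205 of chromosome 17. Libraries 1, 2 and 3 had 1 peak each on this contig, and library 4 had 2.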

How the results depend on the processing

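Of 154 recomputed values over 22 results, 141 kept what was asked of them. For differences between batches this was their direction only, since no p from so few libraries can fall below the threshold of 0.05. Values without a test had to stay within the spread between libraries, and counts within 1.5 times. Direction alone was kept by the batch difference in log2 fold enrichment, which was 0.11, 0.35 without the added 1 and 0.66 over the lowest background. Leaving out 1 library turned the batch difference in peak number (from −313 to 53 peaks), in summit position (from −0.447 to 0.224 percentage points of width) and in the share of overlapped peaks within against between batches (from −0.988 to 2.16 percentage points). Without library 2 the batch difference was 0.878 in median fold enrichment and −20.5 bp in median width, instead of 1.48 and −34.5 bp. Leaving out 1 library moved the mean summit distance to between 20.7 bp and 22 bp. With equal lists the mean of the median fold enrichments was 9.90 instead of 8.85. Pearson's r between batches was 0.823, and 0.802 without the 10 highest regions. With alternatives chosen after seeing the data, pileup alone gave r = 0.927 within and 0.899 between batches and an SD of the difference of 0.380 instead of 0.534, and pileup over local background without the added 1 gave 0.760, 0.751 and 0.691. The cause was not tested. No paired analysis was possible because the libraries of the 2 batches share no replicate number. The median summit of single-library regions held 17 fragments, and the part of depth in their detection was not tested.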

Other observations

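A few JMJD6 regions lay on contigs outside the assembled chromosomes, among them the 2 widest regions and the region with the highest expected level. On the contig gl000205 of chromosome 17, 1 region of 3206 bp had a fold enrichment of 19.3 and 16.0 in batch 1 and 26.3 and 26.7 in batch 2, and on gl000195 of chromosome 7, 1 of 2775 bp had 23.6, 18.5, 24.5 and 37.6. Both had a peak in every library, and the libraries of batch 2 were above those of batch 1. On the unplaced contig gl000220 the expected level reached 119, 156, 61.2 and 99.3 fragments in libraries 1 to 4, against medians from 1.26 to 2.73 over a list, and the lowest fold enrichments of the lists, from 1.67 to 3.07, were found there.

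Among assembled chromosomes, chr11:62607770-62609447 had an expected level above 20 in every library. Its pileup was 144 and 167 fragments in batch 1 and 125 and 158 in batch 2, and its fold enrichment, 5.75, 5.33, 5.61 and 6.97, was low for pileups of that height. Its summits still lay within 11 bp. The widest region outside the contigs, chr1:11967856-11970287, had summits up to 1628 bp apart between libraries, with a fold enrichment of 8.91 and 13.6 in batch 1 and 18.6 and 17.7 in batch 2. All contigs outside the assembled chromosomes together held from 7 to 10 peaks of a list.

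The 3 highest regions with a peak in exactly 3 libraries were each missing from a different list. At chr1:47799756-47800184, missing from the list of library 4, the fold enrichment was 8.85, 11.6 and 11.3 in libraries 1, 2 and 3. At chr6:31866133-31866530, missing from library 1, it was 12.6, 8.43 and 10.6 in libraries 2, 3 and 4. At chr1:31297306-31297635, missing from library 3, it was 11.4, 9.25 and 9.33 in libraries 1, 2 and 4. The regions of these paragraphs were chosen after their values were seen.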
